A study of Homo sapiens with 12 samples.

Results

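TH10785 alone was compared with its solvent, DMSO, across all expressed genes of U2OS, an established human bone tumour line. The comparison takes the 3 libraries labelled TH10785, from cells given 10 µM of the compound for 24 h, and the 3 libraries labelled DMSO, from cells given the solvent for 24 h, which are 6 of the 12 libraries of the study. The other 6 came from cells given 10 µM PNKP1i (3 libraries) or 10 µM of each compound together, called the combination here (3 libraries). All 4 groups shared the same line and culture medium, and no label names a clone, a transgene or separate cultures, so the p-values measure the spread between these libraries, which may be technical. The series title describes a small molecule that activates OGG1, the glycosylase that cuts oxidised guanine out of DNA at the start of base excision repair. The sample labels spell the compound TH10785 and the series text spells it TH10587, and the labels' name is kept. Of 58735 genes in the count table, 17290 had enough reads to be tested.

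Genes of sterol and fatty acid synthesis made up most of the called genes that belonged to any gene list. Cells build cholesterol from acetyl-CoA through mevalonate, farnesyl diphosphate, squalene and lanosterol. The genes of this route are switched together by SREBP2, a transcription factor held in the endoplasmic reticulum with its escort SCAP by the INSIG proteins while membrane sterol is plentiful, and cut free in the Golgi when it is scarce. SREBP1, its relative, drives fatty acid synthesis and desaturation, and the oxysterol receptors LXR switch on cholesterol export.

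The 6 libraries held 16225339 to 20596877 counts. TH10785 replicate 3 stood apart from the others. On principal component 1 (41% of the variance) it lay at 63.3, while the other 5 libraries lay between -26.6 and -0.122. Its levels also followed the GC content of the transcripts: genes under 40% GC had a median of -0.63 relative to the DMSO mean (log2 CPM, where CPM is a gene's reads scaled to the library total), against 0.21 and 0.1 in the other TH10785 libraries. Genes of 60% GC or more had a median of 0.22 in it, against -0.14 and -0.1. Values without this library, or with offsets that level the GC and length trend of every library, are given beside a number of the results.

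**Figure D1:**
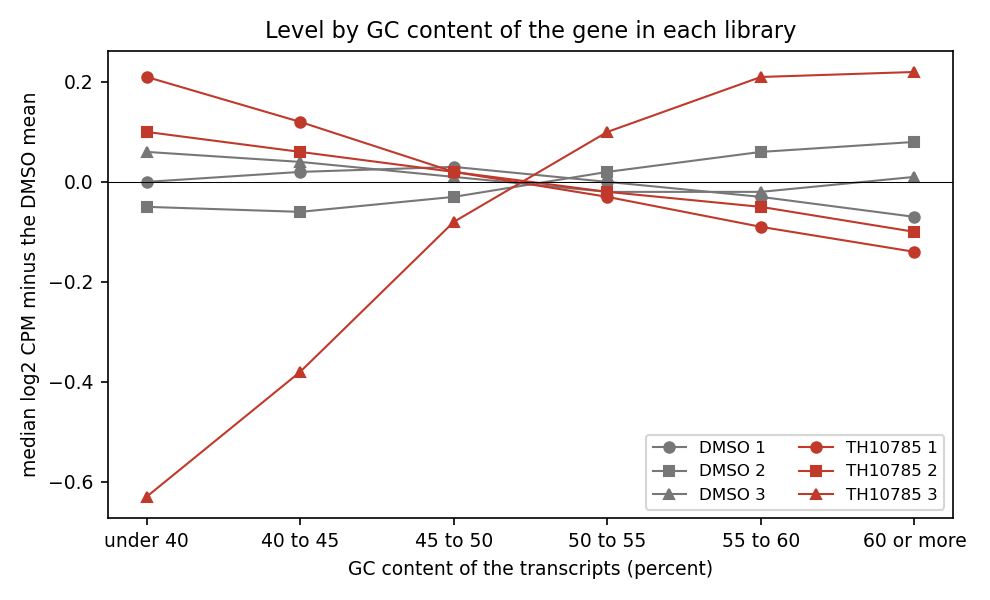
Median level by GC content of the transcripts in the 6 libraries (log2 CPM minus the DMSO mean, points joined by lines for each library). TH10785 replicate 3 ran from -0.63 under 40% GC to 0.22 at 60% or more, and the other 5 libraries stayed between -0.14 and 0.21.

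The cells carried some of the markers of their labelled origin. VIM, an intermediate filament of mesenchymal cells, lay at 936 to 1128 CPM with DMSO and 885 to 1039 CPM with TH10785, and RUNX2, the osteoblast transcription factor, at 24.2 to 31.0 and 24.0 to 27.2 CPM. COL1A1 and SPARC were abundant, but the osteoblast genes SP7, BGLAP, DMP1 and IBSP lay between 0 and 0.418 CPM in all 6 libraries. COL1A2, POSTN, PHEX and DLX5 of the same list lay between 0 and 0.859 CPM. NT5E, a mesenchymal marker, lay between 0 and 0.179 CPM with DMSO and at 0 CPM with TH10785. Of the markers of other cells, CD3E of T cells, TTR, FGB and APOB of hepatocytes, and ADIPOQ and LEP of adipocytes had no read in any of the 6 libraries. Over the whole lists, the summed level of the 9 blood and endothelial markers was 4.56 to 5.37 CPM with DMSO and 4.91 to 8.13 CPM with TH10785, that of the 7 hepatocyte markers, nearly all SERPINA1, 71.3 to 98.4 and 85.7 to 119 CPM, and that of the 7 adipocyte markers, nearly all PPARG, 17.1 to 19 and 24.3 to 26.4 CPM. The 8 epithelial markers summed to 60 to 63.1 CPM with DMSO and 51.5 to 64.7 CPM with TH10785, most of it CLDN4 at 39.7 to 45.9 and 34.7 to 48.4 CPM, while KRT14 lay at 6.33 to 10.5 and 5.94 to 9.63 CPM and GRHL2 between 0 and 0.0517 CPM.

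Few genes were called with TH10785, and most of the called genes rose. At an adjusted p under 0.05 (edgeR's quasi-likelihood test, Benjamini-Hochberg), 97 of 17290 genes were called, which is 0.561% of those tested. Of these, 89 rose (0.515%) and 8 fell (0.0463%). Among the called genes, 59 were at least 2-fold higher and 1 at least 2-fold lower. The middle 50% of all tested genes lay between -0.22 and 0.18 on the log2 scale, with a median of -0.02. An unadjusted p under 0.05 was reached by 2445 genes, 1321 of them higher and 1124 lower with TH10785. In all 97 called genes the 3 TH10785 libraries lay outside the range of the 3 DMSO libraries, which also held for 9.64% of all tested genes in the upward and 10.0% in the downward direction.

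Of the 97 called genes, 36 belonged to 1 or more of the 31 gene lists, and 31 of these to the lists of cholesterol synthesis, sterol sensing and uptake, and fatty acid synthesis. In every one of 22 ways of running the test, 41 genes were called in the same direction, 40 rises and 1 fall, and 25 of the 41 were in these lipid lists. Without TH10785 replicate 3 the count was 137 (110 rises and 27 falls), of which 82 were among the 97. With GC and length offsets it was 285 (209 rises and 76 falls) and included 96 of the 97. Leaving out DMSO replicate 2 gave 44 calls, DMSO replicate 3 gave 47, TH10785 replicate 2 gave 53 and combination replicate 1 gave 178. In bulk RNA a difference in level cannot be told apart from a difference in the share of cells that express the gene.

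**Figure D2:**
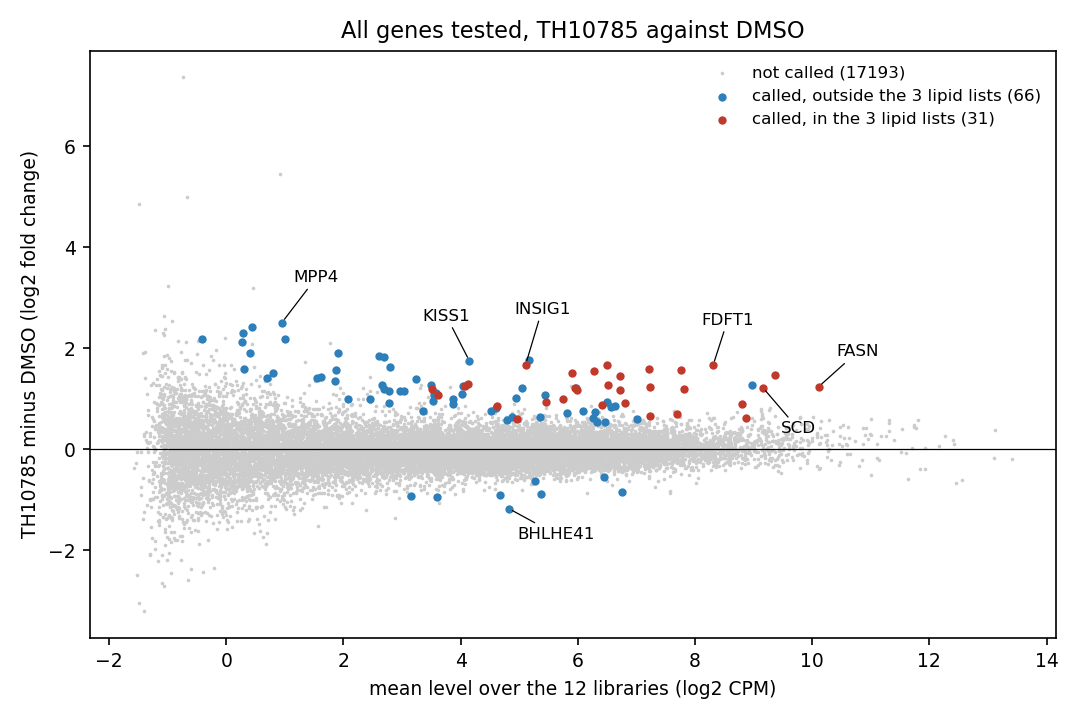
Log2 fold change of each tested gene (TH10785 minus DMSO) against its mean level over the 12 libraries (log2 CPM). Grey points are genes not called, blue points the called genes outside the lipid lists (66) and red points those in them (31). The called genes lie above 0 apart from 8.

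OGG1, the enzyme named in the series title, did not differ detectably in RNA level. Its gene (ENSG00000114026, chr3:9749944-9788219 on GRCh38) lay at 54.8, 54.2 and 46.6 CPM with DMSO and at 45.7, 48.6 and 61.5 CPM with TH10785. The groups overlapped, and the fitted change was 0.00 ± 0.13 (log2, SE, adjusted p = 0.991), and -0.12 without TH10785 replicate 3 (adjusted p = 0.663). None of the 29 base excision repair genes was called by edgeR, DESeq2 or limma-voom. Among the 29, 4 had an unadjusted p under 0.05, beside 2445 of all 17290 genes. The median of the 29 was 0.04, beside -0.02 for all genes. The smallest p-values in this list belonged to MPG, the alkyladenine glycosylase, at 0.49 ± 0.17 (adjusted p = 0.206), MUTYH, which removes adenine opposite oxidised guanine, at 0.34 ± 0.14, APTX at 0.29 ± 0.13 and PARP2, a sensor of strand breaks, at -0.25 ± 0.11. In these 4 genes the groups did not overlap, as in 7 of the 29 overall (4 higher and 3 lower), against 9.64% and 10.0% of all genes.

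Of the 21 genes of cholesterol synthesis, 18 rose and none fell, beside 0.515% and 0.0463% of all tested genes. Over the 21 the median was 1.23 (log2, beside -0.02 for all genes). Added up, their level was 1753, 1784 and 1685 CPM in the DMSO libraries and 4241, 4458 and 5219 CPM in the TH10785 libraries. The means were 1741 ± 51 and 4639 ± 514 CPM (SD, n = 3), with an exact permutation p of 0.1 (two-sided), the smallest that 3 against 3 allows. The 18 members were spread along the whole route, from acetyl-CoA to the last reduction. Between 16 and 19 members were called in each of the 21 other ways of running the test.

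At the entry, ACAT2, which joins acetyl-CoA units, lay at 64.6, 55.8 and 41.7 CPM with DMSO and at 149.9, 157 and 167 CPM with TH10785, a log2 change of 1.55 ± 0.16 (adjusted p = 3.04e-05). HMGCS1, the HMG-CoA synthase (ENSG00000112972, chr5:43289395-43313512), lay at 60.5, 48.6 and 50.8 CPM and at 195, 193 and 125 CPM, a change of 1.68 ± 0.18 (adjusted p = 4.93e-05). TH10785 replicate 3 was the lowest of its group for HMGCS1 but still above every DMSO library.

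The mevalonate steps that follow did not all move. MVK, mevalonate kinase, rose 2.34-fold (1.22 ± 0.14, adjusted p = 9.72e-05), and MVD, the decarboxylase, rose from 103, 111 and 87.2 CPM to 254, 277 and 377 CPM (1.59 ± 0.15, adjusted p = 1.86e-05). PMVK, the kinase between them, had 33.7, 31.3 and 27.3 CPM with DMSO and 32.7, 33.0 and 37.3 CPM with TH10785. Its groups overlapped and the change was 0.16 ± 0.13 (adjusted p = 0.63). IDI1, the isomerase, rose 2.28-fold (adjusted p = 0.0169), with 20.7, 17.3 and 10.4 CPM in the TH10785 libraries against 6.72 to 7.33 CPM with DMSO. FDPS, farnesyl diphosphate synthase, rose from 86.5, 75.7 and 58.2 CPM to 184, 192 and 224 CPM (1.45 ± 0.14, adjusted p = 2.58e-05).

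Past farnesyl diphosphate the route is committed to sterols. FDFT1, squalene synthase, had the smallest p of all genes and lay at 212, 214 and 173 CPM with DMSO and at 573, 602 and 734 CPM with TH10785, a 3.18-fold rise (1.67 ± 0.14, adjusted p = 1.14e-05). SQLE, squalene epoxidase, lay at 114, 95.3 and 106 CPM and at 254, 272 and 212 CPM (1.23 ± 0.12, adjusted p = 1.86e-05). In both genes every TH10785 library was well clear of every DMSO library. LSS, which closes the ring to lanosterol, rose 2.27-fold, and CYP51A1, the lanosterol demethylase, rose 2.11-fold.

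The later conversions of lanosterol to cholesterol showed the same direction with exceptions. MSMO1, the methyl sterol oxidase, lay at 35.4, 35.1 and 36.6 CPM with DMSO and at 108, 118 and 80.2 CPM with TH10785 (1.52 ± 0.15, adjusted p = 1.86e-05). NSDHL rose 2.27-fold, HSD17B7 2.46-fold, ERG28, a scaffold of this demethylation complex, 2.25-fold, and EBP, the sterol isomerase, 2.43-fold. HSD17B7 has a close pseudogene copy, so its reads may be shared with that copy. DHCR7, the last enzyme of one of the final branches, lay at 133, 151 and 148 CPM and at 367, 393 and 532 CPM (1.58 ± 0.15, adjusted p = 1.86e-05). It was highest in TH10785 replicate 3, and without that library the change was 1.42.

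TM7SF2, a sterol reductase, and SC5D, the desaturase, were not called. TM7SF2 had 9.99, 8.86 and 8.03 CPM with DMSO and 9.44, 9.11 and 9.54 CPM with TH10785 (0.06 ± 0.16, adjusted p = 0.895). SC5D had 12.7, 10.3 and 11.8 CPM with DMSO, 24.4 and 21.4 CPM in TH10785 replicates 1 and 2, and 11.8 CPM in replicate 3. Its change was 0.72 ± 0.22 (adjusted p = 0.156). Without replicate 3 it was 0.99 (adjusted p = 0.00159), and with GC and length offsets 0.68 (adjusted p = 0.0068).

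**Figure D3:**
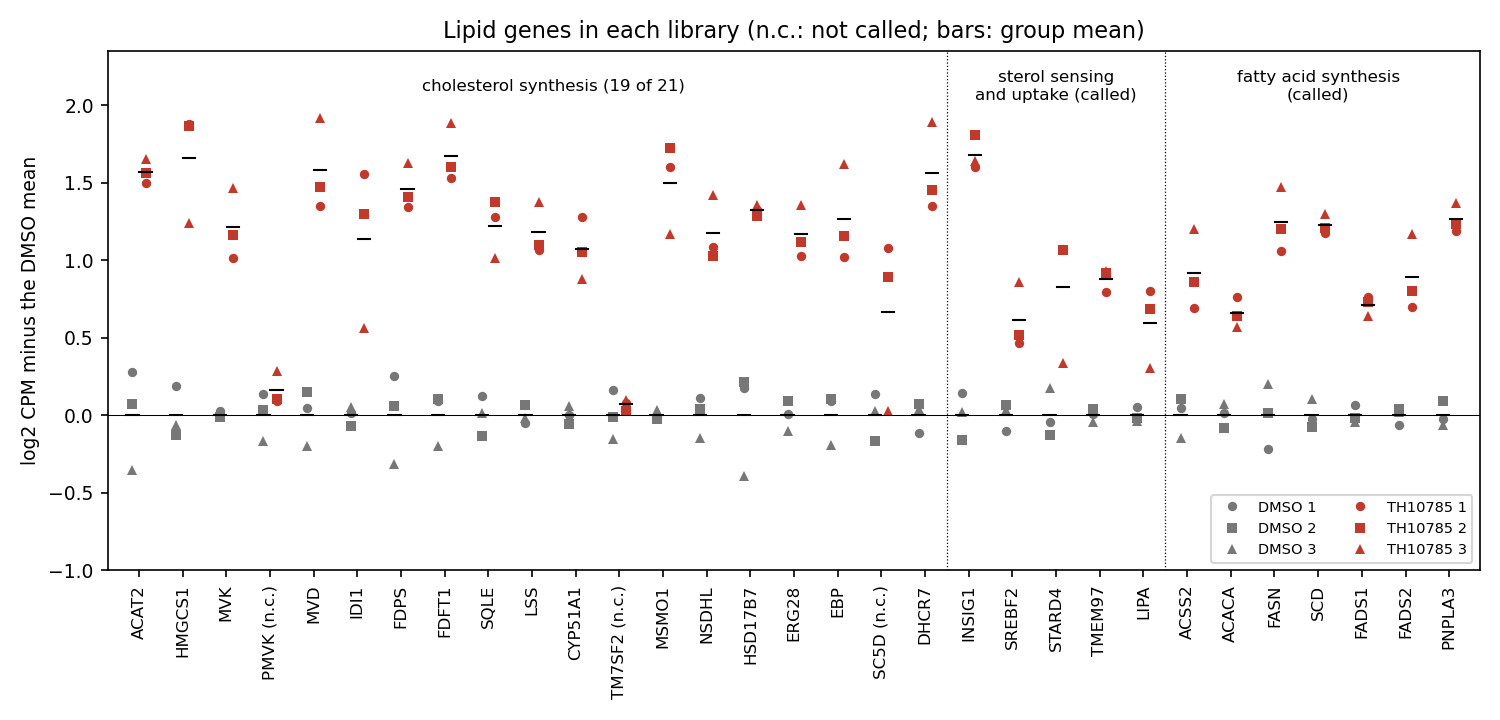
Level of lipid genes in each library (log2 CPM minus the DMSO mean of the gene), with 19 of the 21 cholesterol synthesis genes in the order of the route and 12 of the 13 called genes of the other lipid lists. Grey points are DMSO, red points TH10785, shapes the replicate numbers and bars the group means. PMVK and TM7SF2 sit among the DMSO points, and TH10785 replicate 3 sits low for IDI1, SC5D and STARD4.

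Since these genes moved together, the promoters of the called members were scanned for known boxes on both strands, in RefSeq windows of GRCh38.p14 from 250 bases before to 50 after the start. The table held 13 of the 18 called cholesterol synthesis genes. The letters CCAAT, the box of the factor NF-Y, stood in 12 of the 13 and at least 2 times in 11, while 42.3% of the 11745 tested genes with a window held it and 15.7% held it at least 2 times. Over all 27305 genes of the table those shares were 39.7% and 12.9%. The GC box GGGCGG, bound by SP1, was in 12 of the 13, against 75.2% of tested genes. The letters TCACNCCAC, the classic sterol element, were in none of the 13 windows and in 1.46% of tested genes, and the E-box CACGTG was in 1 of the 13 and in 12.2% of tested genes. The looser form TCACNCCNC was in 2 of the 13, ERG28 and IDI1 (15.4%), against 8.53% of tested genes, and the element TCACNTGA in 1 (7.69%), against 5.11%. A gene counts once if any of its windows holds the box, overlapping copies count separately, and every match of TCACNCCAC is also one of TCACNCCNC.

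Of the 46 called genes outside the lipid lists that had a window, 19 held CCAAT (41.3%) and 7 held it at least 2 times (15.2%). Among the 3 cholesterol synthesis genes that were not called, PMVK, TM7SF2 and SC5D, 2 held the box and none held it 2 times or more. In fatty acid synthesis CCAAT stood in 4 of the 5 called genes with a window and in 13 of the 18 that were not called (72.2%), of which 6 held it at least 2 times (33.3%). In sterol sensing and uptake CCAAT stood in all 5 called genes with a window and in 1 of the 8 others (12.5%). These matches describe letters in a window and do not show that a factor was bound there.

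The 250 bases before the start are shown for 5 called genes, with CCAAT (or ATTGG on the other strand), CACGTG and TCACNCCAC in capitals. MVK (chr12:109573544-109573793, plus strand) and NSDHL (chrX:152830813-152831062, plus strand) have 5 CCAAT boxes each, and in NSDHL 2 of them overlap. MVD (chr16:88663092-88663341, minus strand) has 3. INSIG1 (chr7:155297628-155297877, plus strand) has a CCAAT and a CACGTG. SREBF2 (chr22:41832855-41833104, plus strand) was the only called gene of the lipid lists whose window held TCACNCCAC, and it also has a CCAAT.
MVK: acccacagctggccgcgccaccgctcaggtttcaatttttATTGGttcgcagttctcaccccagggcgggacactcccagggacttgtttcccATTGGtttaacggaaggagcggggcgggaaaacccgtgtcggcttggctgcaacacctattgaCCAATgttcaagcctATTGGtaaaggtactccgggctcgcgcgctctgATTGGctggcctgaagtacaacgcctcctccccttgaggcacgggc
NSDHL: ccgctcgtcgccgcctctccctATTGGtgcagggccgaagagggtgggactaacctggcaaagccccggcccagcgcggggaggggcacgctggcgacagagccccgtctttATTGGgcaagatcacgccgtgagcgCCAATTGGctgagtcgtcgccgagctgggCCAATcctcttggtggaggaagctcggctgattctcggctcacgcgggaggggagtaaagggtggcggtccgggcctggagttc
MVD: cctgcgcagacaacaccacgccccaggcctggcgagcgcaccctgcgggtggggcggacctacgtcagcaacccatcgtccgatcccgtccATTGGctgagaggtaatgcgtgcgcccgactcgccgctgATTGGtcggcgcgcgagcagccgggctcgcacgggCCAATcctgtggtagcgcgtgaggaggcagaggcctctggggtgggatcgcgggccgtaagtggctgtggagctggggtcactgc
INSIG1: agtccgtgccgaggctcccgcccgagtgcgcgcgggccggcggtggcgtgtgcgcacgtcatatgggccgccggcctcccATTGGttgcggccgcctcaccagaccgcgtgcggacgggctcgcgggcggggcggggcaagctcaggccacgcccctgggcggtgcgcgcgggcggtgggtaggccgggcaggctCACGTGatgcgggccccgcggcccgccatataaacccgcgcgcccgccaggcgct
SREBF2: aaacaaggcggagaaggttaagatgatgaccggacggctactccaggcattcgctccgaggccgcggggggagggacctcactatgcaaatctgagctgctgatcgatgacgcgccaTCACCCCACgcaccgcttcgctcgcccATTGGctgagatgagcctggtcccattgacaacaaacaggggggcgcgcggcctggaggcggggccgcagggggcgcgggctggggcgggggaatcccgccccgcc

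Not everything fed by mevalonate moved. The 13 genes of the isoprenoid branch, which makes dolichol and the lipid anchors of proteins, had no called member by edgeR, DESeq2 or limma-voom. None had an unadjusted p under 0.05, beside 2445 of all 17290 genes. The median of the 13 was 0.06, and the smallest adjusted p, 0.432, belonged to DHDDS, a dolichol synthase, at 0.21 ± 0.12.

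Of the 19 tested genes of sterol sensing and uptake, 6 rose and none fell, beside 0.515% and 0.0463% of all tested genes. The median of the 19 was 0.31. INSIG1 itself, the retention protein of SREBP (ENSG00000186480, chr7:155297776-155310235), lay at 23.2, 18.8 and 21.3 CPM with DMSO and at 63.6, 73.4 and 65.5 CPM with TH10785, a 3.2-fold rise (1.68 ± 0.14, adjusted p = 1.28e-05). TMEM97, the sigma-2 receptor that binds the cholesterol transporter NPC1, rose 1.84-fold (adjusted p = 0.000868). SREBF2, the gene of SREBP2, rose 1.54-fold, from 411, 461 and 451 CPM to 609, 631 and 800.4 CPM (adjusted p = 0.0377). STARD4, a sterol carrier, rose 1.81-fold (adjusted p = 0.0432) and LIPA, which frees cholesterol from esters in the lysosome, 1.53-fold (adjusted p = 0.0455). SREBF2, STARD4 and LIPA were called in 13, 11 and 9 of the 22 ways of running the test. STARD4 had 39.0, 38.9 and 23.5 CPM with TH10785 against 17 to 21 CPM with DMSO, so replicate 3 was close to the DMSO range.

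The remaining members of the sensing machinery were not called. SREBF1, the gene of SREBP1, had 200.2, 236 and 226 CPM with DMSO and 279, 295 and 374 CPM with TH10785, without overlap (0.52 ± 0.12, adjusted p = 0.0764), and was called with GC and length offsets (0.61, adjusted p = 0.00029). SCAP, INSIG2 and the SREBP proteases MBTPS1 and MBTPS2 had values between -0.17 and -0.04 with overlapping groups. NPC1, which moves cholesterol out of lysosomes, was at 0.47 ± 0.15 (adjusted p = 0.17) and SCARB1, the HDL receptor, at 0.32 ± 0.15 (adjusted p = 0.333). The count of 6 was 3 when DMSO replicate 1, 2 or 3, PNKP1i replicate 3 or TH10785 replicate 2 was left out, and 9 with GC and length offsets.

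Among the 11 tested LXR targets and export genes none was called by edgeR, DESeq2 or limma-voom. An unadjusted p under 0.05 was reached by 3 of the 11, beside 2445 of all 17290 genes. ABCG1, a cholesterol exporter, had 16.8, 18.8 and 18.1 CPM with DMSO and 12.4, 12.1 and 13 CPM with TH10785 (-0.52 ± 0.19, adjusted p = 0.224). The groups did not overlap. LPCAT3, a phospholipid remodelling enzyme, and NR1H3, the gene of LXR alpha, were at 0.39 ± 0.15 and 0.45 ± 0.18, so the members pointed in both directions around a median of 0.06.

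Of the 24 tested genes of fatty acid synthesis, 7 rose and none fell, beside 0.515% and 0.0463% of all tested genes. The median of the 24 was 0.33. SCD, the stearoyl-CoA desaturase (ENSG00000099194, chr10:100347124-100364834), lay at 433, 417 and 473 CPM with DMSO and at 994, 1015 and 1081 CPM with TH10785, a 2.34-fold rise (1.22 ± 0.12, adjusted p = 1.86e-05). FASN, the fatty acid synthase (ENSG00000169710, chr17:82078333-82098332), lay at 723, 848 and 964 CPM and at 1747, 1929 and 2323 CPM, a 2.37-fold rise (1.24 ± 0.15, adjusted p = 0.000212). ACSS2, which makes acetyl-CoA from acetate, rose 1.91-fold and ACACA, the carboxylase that commits acetyl-CoA to fatty acids, 1.58-fold. The desaturases of long unsaturated fatty acids, FADS1 and FADS2, rose 1.64-fold and 1.87-fold. FADS1 (chr11:61799625-61829318, minus strand) lies within the span of FADS2 (chr11:61792980-61867354, plus strand), and without a statement on strand their reads cannot be told apart there. PNPLA3, a lipid droplet enzyme, rose 2.4-fold (adjusted p = 0.000127).

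The changes of the synthesis genes not called were smaller. ACLY, which makes acetyl-CoA from citrate, had 508, 551 and 569 CPM with DMSO and 671, 686 and 795 CPM with TH10785 (0.40 ± 0.12, adjusted p = 0.135), and SLC25A1, the citrate carrier that feeds it, was at 0.48 ± 0.15 (adjusted p = 0.164). The elongase ELOVL6 was at 0.55 ± 0.17 (adjusted p = 0.159). SCD5, ACACB, ME1 and ELOVL7 lay between -0.03 and 0.05, with overlapping groups. With GC and length offsets 11 members were called, ACLY, SLC25A1, ELOVL6 and MID1IP1 in addition.

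Beside synthesis, 1 of 22 genes of triglyceride and phospholipid metabolism rose, PCYT2, the rate-setting enzyme of phosphatidylethanolamine synthesis, from 88.0, 84.8 and 80.3 CPM to 134, 137 and 185 CPM (0.85 ± 0.13, adjusted p = 0.00181). LPIN1, a phosphatidate phosphatase, was at 0.52 ± 0.13 (adjusted p = 0.0923) and was called without TH10785 replicate 3 (0.67, adjusted p = 0.00101). None of the 20 tested genes of fatty acid oxidation was called by edgeR or limma-voom, and 1 was by DESeq2. Among the 20, 2 had an unadjusted p under 0.05, beside 2445 of all 17290 genes. HADHB, a subunit of the trifunctional protein, had 148, 159.7 and 142 CPM with DMSO and 109, 104 and 117 CPM with TH10785 (-0.45 ± 0.10, adjusted p = 0.0577), and -0.48 without TH10785 replicate 3 (adjusted p = 0.0199). PPARGC1A, the coactivator of oxidative genes, was at -1.73 ± 0.54 (adjusted p = 0.169) from 1.14, 2.5 and 2.57 CPM to 1.04, 0.466 and 0.388 CPM.

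Further called rises lay both in the other lists and outside any list. IDH1, the cytosolic isocitrate dehydrogenase that makes NADPH, lay at 68.9, 52.5 and 53.7 CPM with DMSO and at 125, 119 and 91.3 CPM with TH10785 (0.94 ± 0.13, adjusted p = 0.00123). MMAB, an enzyme of vitamin B12 metabolism, rose 2.02-fold (adjusted p = 0.00332), and QPRT, of NAD synthesis, 2.09-fold (adjusted p = 0.0023). ALDOC, an aldolase and the single called gene of 22 in the glycolysis list, rose from 4.61, 4.15 and 3.16 CPM to 12, 13.2 and 17.8 CPM (1.85 ± 0.23, adjusted p = 0.000283). NEU1, the lysosomal sialidase, and SLC17A5, which exports sialic acid from lysosomes, rose 1.68-fold and 1.69-fold. NEU1 was the called gene of 26 in the list of lysosome and autophagy, whose median was 0.03. MGLL and ABHD4, lipases of monoacylglycerols and lysophospholipids, rose 1.56-fold and 1.47-fold, and ABHD4 was not called without TH10785 replicate 3 (0.44, adjusted p = 0.0591).

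Several called genes outside the lipid lists had fold changes as large as those of the lipid genes, some of them at a low level. MPP4, a scaffold protein known from photoreceptors (ENSG00000082126, chr2:201644870-201698694), rose 5.7-fold from 0.359, 0.489 and 0.428 CPM to 2.33, 2.69 and 2.33 CPM (adjusted p = 0.000336). PTPRR, a phosphatase of MAP kinases, rose 4.52-fold, from 0.658, 0.916 and 0.482 CPM to 4.23, 3.31 and 1.78 CPM (adjusted p = 0.0107). KISS1, the kisspeptin precursor (ENSG00000170498, chr1:204190341-204196486), lay at 7.36, 7.57 and 7.71 CPM and at 21.4, 26.0 and 29 CPM, a 3.38-fold rise (1.75 ± 0.16, adjusted p = 1.86e-05). ALPL, the tissue-nonspecific alkaline phosphatase and the called gene of 9 in the osteoblast list, rose 3.54-fold from 2.69, 3.36 and 3.05 CPM to 10.1, 9.11 and 13 CPM. PTP4A3, the phosphatase PRL-3, rose 3.38-fold from 22.2, 22.8 and 19.9 CPM to 69.9, 63.9 and 85.5 CPM (adjusted p = 0.000868). CDHR1, a photoreceptor cadherin, rose 2.63-fold and SUN3, a nuclear envelope protein, 2.34-fold.

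Secreted factors among the rises included FGF1 at 2.01-fold (adjusted p = 0.00256), the protease MMP9 at 2.38-fold (adjusted p = 0.0111), the EGF receptor ligand AREG at 2.24-fold (adjusted p = 0.0377), the cytokine IL32 at 1.71-fold (adjusted p = 0.0395) and SCG5, a secretory pathway chaperone, at 3.09-fold (adjusted p = 0.0399). FGF1 had 9.69, 10.5 and 10.4 CPM with DMSO and 21, 20.1 and 20.4 CPM with TH10785. MICA, a stress ligand of natural killer cells, rose 1.7-fold and HDAC5, a class IIa histone deacetylase, 1.79-fold. AREG and IL32 were not called without TH10785 replicate 3 (adjusted p = 0.0565 and 0.0513).

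Of the 97 called genes, 81 were protein-coding and 16 were not. RN7SL2, the RNA of the signal recognition particle, lay at 299.5, 249.9 and 329 CPM with DMSO and at 565, 755 and 807 CPM with TH10785 (1.28 ± 0.22, adjusted p = 0.0074), and its near copy RN7SL3 rose 2.41-fold (adjusted p = 0.0453). Their reads can be shared, so the pair is uncertain, and neither was called without TH10785 replicate 3 (adjusted p = 0.0778 and 0.0844). PAX8-AS1, NR2F1-AS1, LINC02615 and the pseudogene RPS28P7 also rose, RPS28P7 with reads that could belong to the ribosomal protein gene it copies.

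Some called genes were neighbours on GRCh38. MVK (chr12:109573255-109598117, plus strand) and MMAB (chr12:109553737-109573874, minus strand) lie head to head with 620 shared bases, and both rose. Reads in the shared bases cannot be assigned to either gene without strand. MVD (chr16:88651935-88663161, minus strand) lies 136 bases from SNAI3-AS1 (plus strand), which rose 2.3-fold. SNAI3, which lies within the span of SNAI3-AS1 on the opposite strand, rose 2-fold (adjusted p = 0.033, and 0.0749 without TH10785 replicate 3), and reads of this pair cannot be told apart without strand.

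The 8 falls were moderate, and together they form no list. BHLHE41, a circadian repressor (ENSG00000123095, chr12:26120026-26125127), fell from 39.5, 44.4 and 52.5 CPM to 25.2, 20.1 and 15.5 CPM (-1.17 ± 0.24, adjusted p = 0.0357), the 1 fall past 2-fold. SEMA3E, a guidance ligand of plexin D1, fell from 16.9, 14.2 and 15 CPM to 9.32, 8.9 and 5.77 CPM (-0.94 ± 0.20, adjusted p = 0.0437), and SFMBT2, a Polycomb protein, from 12.7, 11.8 and 13.2 CPM to 8.09, 6.73 and 5.1 CPM (-0.92 ± 0.20, adjusted p = 0.0447). In these 3 genes TH10785 replicate 3 was the lowest library, and without it none of the 3 was called (adjusted p = 0.134, 0.0686 and 0.0778).

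The other 5 falls were called without that library. SBK1, a protein kinase, fell from 37.4, 40.7 and 44.2 CPM to 23.1, 19.6 and 22.5 CPM (-0.91 ± 0.16, adjusted p = 0.0102), and KRT75, a keratin, from 62.8, 60.5 and 65.8 CPM to 28.1, 29.9 and 44.4 CPM (-0.88 ± 0.17, adjusted p = 0.0204). ZNF703, a transcriptional repressor, fell from 139, 168 and 190.5 CPM to 90.7, 80.7 and 105 CPM (-0.85 ± 0.13, adjusted p = 0.00237) and was the fall called in all 22 ways of running the test. MIDN, midnolin, which brings nuclear proteins to the proteasome, fell from 102, 117 and 127 CPM to 73.1, 73.8 and 89.1 CPM (-0.55 ± 0.12, adjusted p = 0.0437). The median GC content of the falling genes was 60.5%, against 50.1% for the rises and 49.3% for all tested genes. BHLHE41 was also the called gene among 15 of the circadian clock list, in which PER2 was at -0.54 ± 0.16 (adjusted p = 0.152).

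Several large lists had medians away from 0 with no member that passed the test. The 79 cytosolic ribosomal protein genes had a median of 0.45 and no member called by edgeR or limma-voom, while DESeq2 called 13 and 57 had an unadjusted p under 0.05. In 58 of them all TH10785 libraries lay above all DMSO libraries, which held for 9.64% of all genes, and 2445 of 17290 genes had an unadjusted p under 0.05. RPL27 had 562, 439 and 336 CPM with DMSO and 751, 728 and 866 CPM with TH10785 (0.81 ± 0.19, adjusted p = 0.0653). The DMSO libraries themselves spread on this list, with medians of 0.22, 0.00 and -0.23 relative to their mean, while the TH10785 libraries stood at 0.37, 0.38 and 0.64.

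The 75 nuclear genes of the respiratory chain had a median of 0.29, with 29 above without overlap, 33 at an unadjusted p under 0.05, none called by edgeR or limma-voom and 1 by DESeq2. Of all 17290 genes, 9.64% lay above and 10.0% below without overlap, and 2445 had an unadjusted p under 0.05. UQCRQ, a subunit of complex III, was at 0.76 ± 0.20 (adjusted p = 0.109). Transcripts of the mitochondrial genome lay on the other side: all 13 had negative values, with a median of -0.38, 6 below without overlap, 7 at an unadjusted p under 0.05, none called by edgeR or limma-voom and 1 by DESeq2. COX3 had 5964, 7389 and 10503 CPM with DMSO and 4658, 4997 and 5419 CPM with TH10785 (-0.66 ± 0.18, adjusted p = 0.109). DMSO replicate 3 was the highest library for COX3, and the mitochondrial share of all counts was 4.24%, 4.94% and 6.8% with DMSO against 3.89%, 3.92% and 3.88% with TH10785 (exact permutation p = 0.1, two-sided, the smallest possible). With GC and length offsets the median was -0.46 and COX3 was called (-0.80, adjusted p = 0.0428), while 1 of the 13 lay below without overlap, beside 1930 of all 17290 genes with the same offsets.

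Genes induced by ATF4, the factor of the amino acid and integrated stress response, had a median of 0.32 over 35 genes. Of these, 33 had positive values, 20 lay above without overlap and 17 had an unadjusted p under 0.05, but none was called by edgeR or limma-voom and 3 by DESeq2. Of all 17290 genes 9.64% lay above without overlap and 2445 had an unadjusted p under 0.05. CHAC1, a glutathione-degrading enzyme, had 20.2, 22.7 and 21.2 CPM with DMSO and 29.1, 31.1 and 41.8 CPM with TH10785 (0.67 ± 0.16, adjusted p = 0.0746), and NUPR1 had 43.4, 35.7 and 33.0 CPM and 53.9, 49.1 and 57.8 CPM (0.52 ± 0.13, adjusted p = 0.0961). Both were called with GC and length offsets.

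**Figure D4:**
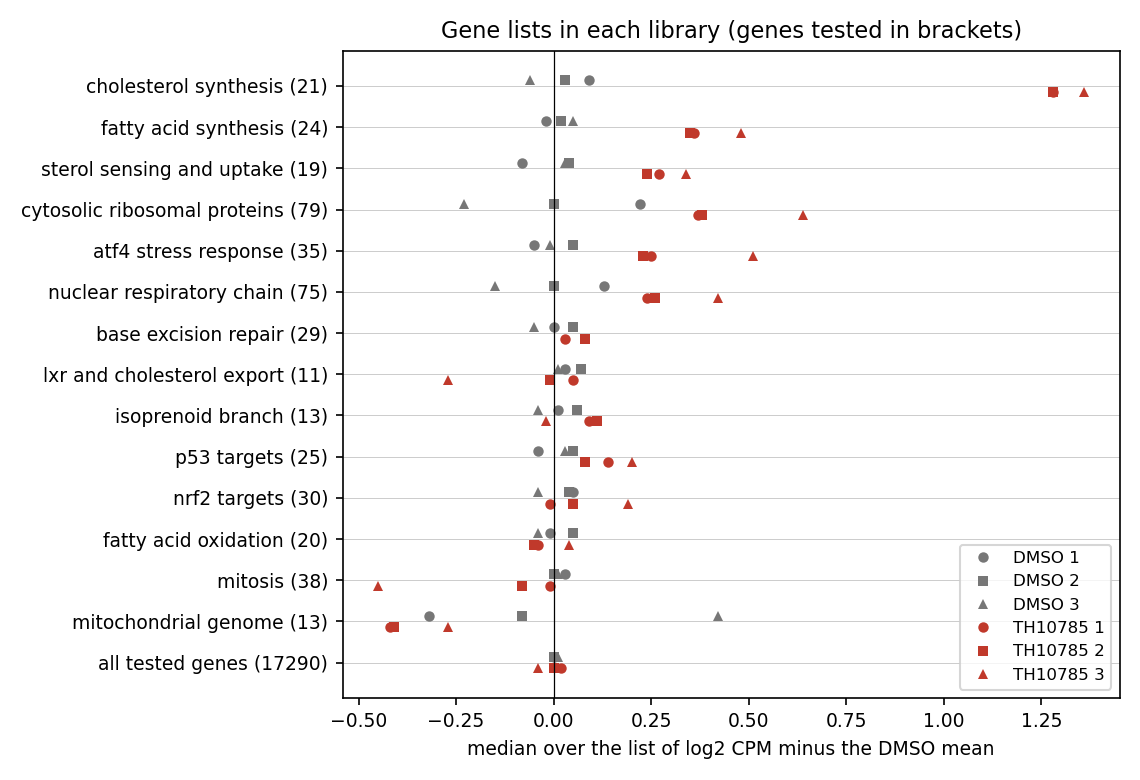
Median of each gene list in each of the 6 libraries (log2 CPM minus the DMSO mean, number of tested genes in brackets). For cholesterol synthesis the TH10785 libraries stand at 1.28, 1.28 and 1.36 and the DMSO libraries between -0.06 and 0.09. For the mitosis list TH10785 replicate 3 is the lowest library at -0.45, with the other TH10785 libraries at -0.01 and -0.08.

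The DNA damage and further stress lists had medians between -0.20 and 0.16, beside -0.02 for all genes. Above and below without overlap lay 5 and 0 of the p53 targets and 4 and 1 of the NRF2 targets. The counts were 2 and 1 for chaperones and also for hypoxia genes. For NF-kB genes they were 2 and 0, and for aryl hydrocarbon receptor targets 0 and 2. Over all 17290 genes these shares were 9.64% and 10.0%, and 2445 had an unadjusted p under 0.05. The 25 p53 targets had a median of 0.10 and no called member by edgeR, DESeq2 or limma-voom, with 3 at an unadjusted p under 0.05; CDKN1A, the cell cycle inhibitor p21, had 290, 297 and 271 CPM with DMSO and 335, 339 and 462 CPM with TH10785 (0.40 ± 0.13, adjusted p = 0.182). The 30 NRF2 targets had a median of 0.03, none called by edgeR or limma-voom, 2 by DESeq2 and 4 at an unadjusted p under 0.05, among them HMOX1, haem oxygenase, at 0.60 ± 0.16 (adjusted p = 0.111). No member was called by edgeR, DESeq2 or limma-voom among 16 chaperones of the endoplasmic reticulum (median 0.03, 1 at an unadjusted p under 0.05), 14 hypoxia genes (median -0.08, 1), 16 genes of NF-kB and inflammation (median 0.16, 3) and 4 targets of the aryl hydrocarbon receptor (median -0.20, 1).

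Cell cycle lists had no called member by edgeR or limma-voom. The counts at an unadjusted p under 0.05 given here stand beside 2445 of all 17290 genes. The 38 mitosis genes had a median of -0.23, with list medians of -0.01, -0.08 and -0.45 in the TH10785 libraries, and -0.02 without TH10785 replicate 3. With GC and length offsets the libraries stood at -0.13, -0.14 and -0.26, the median was -0.24, and 13 of the 38 lay below all DMSO libraries, beside 1930 of all 17290 genes. TPX2, a spindle factor, was at -0.29 ± 0.12 (adjusted p = 0.258). DESeq2 called none of them, and 2 had an unadjusted p under 0.05. The 33 genes of DNA replication had a median of 0.02, with 1 at an unadjusted p under 0.05 and called by DESeq2. The 31 tested histone genes that are made with replication had a median of 0.17, with 6 at an unadjusted p under 0.05 and 1 called by DESeq2, and H2AC20 was at 1.43 ± 0.33 (adjusted p = 0.0677). Among 32 immediate early and ERK feedback genes the median was -0.03, none was called by edgeR or limma-voom, 2 were by DESeq2 and 8 had an unadjusted p under 0.05, with DUSP1 at 0.49 ± 0.12 (adjusted p = 0.096).

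The TH10785 libraries could also be read against PNKP1i alone, a comparison that shares them with the one against DMSO. Here 156 of 17290 genes were called (0.902%). Of the 21 cholesterol synthesis genes 19 were called higher with TH10785, with a median of 1.29. Their summed level with PNKP1i was 1925, 1667 and 1816 CPM, near that of the DMSO libraries. The count of 156 moved to 556 without TH10785 replicate 3, to 103 and 74 without TH10785 replicates 1 and 2, and to 87, 68 and 68 without PNKP1i replicates 1, 2 and 3. The called genes of the ATF4 list were lower with TH10785 than with PNKP1i, 6 of 35, with a median of -0.36.

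Adding TH10785 to PNKP1i was measured in libraries that the comparison with DMSO does not use. Between the combination and PNKP1i alone 7945 genes were called (46.0%), 24.4% of tested genes higher and 21.5% lower. Of the 89 rises with TH10785 alone, 35 were called higher there too (39.3%), which is 0.828% of the 4226 genes called higher, and 9 were called lower. The 31 lipid rises had a median of 1.22 without PNKP1i and 0.01 with it, with 8 called higher and 6 lower. The other 58 rises had medians of 1.16 and 0.39, with 27 called higher and 3 lower. Both counts stand beside the 24.4% and 21.5% of all tested genes, and the difference between the lipid rises and the others was not tested. Of the 8 falls, 7 were called lower in the combination, all but SEMA3E.

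The summed level of the cholesterol synthesis genes was 1730.5, 2070.2 and 1964 CPM in the combination, close to PNKP1i alone and far below TH10785 alone. Over that list 7 of 21 were called higher and 3 lower against PNKP1i, beside 24.4% and 21.5% of all tested genes. The list median was -0.10. HMGCS1 was at 1.17 (adjusted p = 0.000167), CYP51A1 at 1.13, MSMO1 at 1.11 and SQLE at 0.95, whereas FDFT1 was at 0.04, MVD at -0.14 and LSS at -0.46. Among the rises outside the lipid lists KISS1 was at 1.82, MPP4 at 3.03, SUN3 at 1.63 and ALPL at 1.47, while ALDOC was at -0.23 and PTP4A3 at -0.32.

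The difference between these changes, the interaction of the compounds, was called for 5289 genes (30.6%), for 3264 with GC and length offsets, and for 3501, 3519 and 3492 without DMSO replicate 3, PNKP1i replicate 1 and PNKP1i replicate 3. In the cholesterol synthesis list it was called negative for 12 of 21 and positive for none, with a median of -1.28, and with GC and length offsets it was negative for 15. For FDFT1 the interaction was -1.63 ± 0.19 (adjusted p = 0.000531), and for HMGCS1 -0.51 ± 0.25 (adjusted p = 0.126). With GC and length offsets it was -1.56 for FDFT1, -1.2 for HMGCS1 (adjusted p = 0.00148) and -1.13 for MSMO1 (adjusted p = 0.000502). For CYP51A1 and SQLE it was -0.54 and -0.36 with these offsets, and not called (adjusted p = 0.0726 and 0.0693). The interaction uses the TH10785 and DMSO libraries that chose the called genes, so a negative value is favoured among the 89 rises by that choice, and no share over them is read from it. OGG1 lay at 56.2 ± 1.8 CPM with PNKP1i and 36.9 ± 3.9 CPM in the combination (SD, n = 3), a change of -0.61 (adjusted p = 0.00154).

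**Figure D5:**
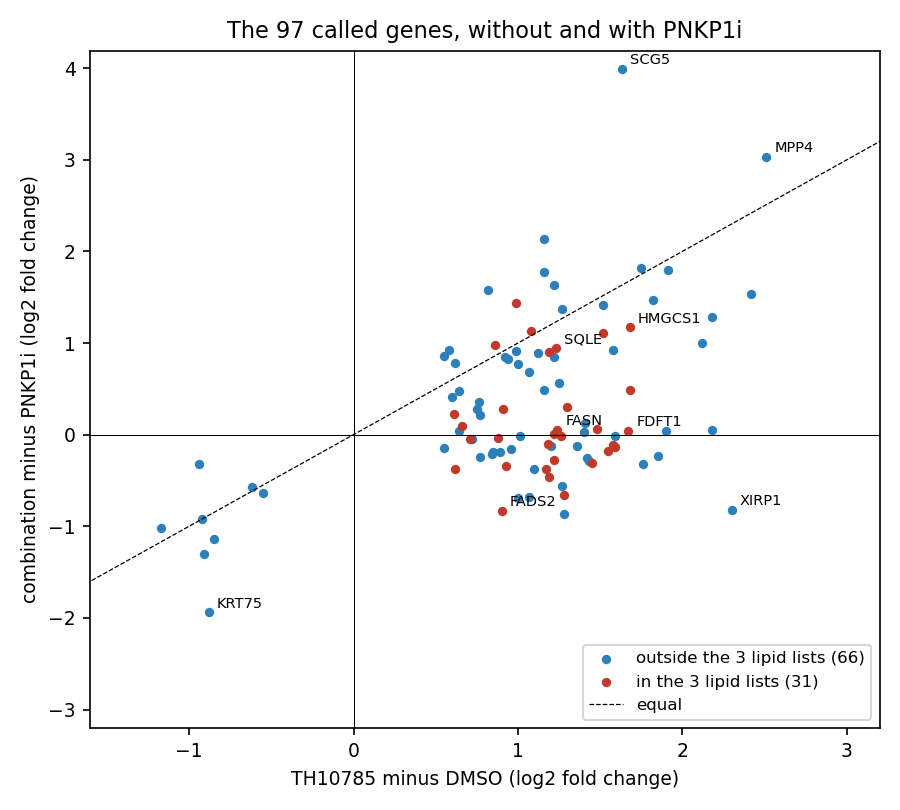
Log2 fold change of the 97 called genes with TH10785 against DMSO (horizontal) and with the combination against PNKP1i (vertical), which share no library. Red points are genes of the lipid lists (31) and blue points the others (66), and the dashed line marks equal changes. Many red points lie near 0 on the vertical axis, while MPP4 and HMGCS1 lie above 1.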

How the data were processed

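RNA-seq counts per gene were taken for 12 U2OS libraries, 4 groups of 3. The deposited values are whole-number counts; per the submitters' processing notes the tools were HISAT2 2.0.5, HTSeq 0.6.1 and DESeq2 1.30.1 with GRCh38, and the annotation release and strand setting are not given in the sources used here. All 58735 gene IDs were found in GENCODE 29, which gave names, positions and GC content. Genes were kept by edgeR's filterByExpr (minimum count 10, minimum total 15), which left 17290 of 58735.

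All 12 libraries were fitted together by edgeR's quasi-likelihood test (edgeR 4.0.16, R 4.3.3) with TMM scaling and Benjamini-Hochberg adjustment, and called at an adjusted p under 0.05. CPM values of single tested genes and of the cholesterol list use TMM-scaled library totals. Marker sums use the plain totals. Replicates differed by more than sampling noise (chi-square per gene 3.04 to 37.1), and the biological coefficient of variation was 15.4%. In a library of this depth 3 counts equal 0.155 to 0.184 CPM, a figure for counting error only. On simulated data for TH10785 against DMSO over 17289 genes, the test recovered 37.3%, 74.6% and 98.5% of genes changed 1.5, 2 and 4-fold and called 10 unchanged genes. The simulated counts were drawn from the DMSO means with the fitted spread, and only genes above a minimum level were changed. They held no GC trend and no library that stood apart, so these figures need not hold for the real libraries.

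Alternatives were RLE scaling, DESeq2 1.42.0, limma-voom (limma 3.58.1), no low-count filter, a stricter filter (CPM of 1 in 3 libraries), a test against a 1.2-fold change, a fit of the compared groups alone, the replicate number as a block, offsets from splines of GC content and length (17282 genes had both), and leaving out each library. The genes, the 31 lists (761 of 763 entries matched) and the tests were chosen with earlier results of these data known. Named were OGG1, the called genes in a list, all falls and the 20 largest rises among called genes (mean log2 CPM 1 or more), the members of the lipid lists, and up to 4 members with the smallest p of each other list. Some of these genes are not reported here. Other called genes named in the text were picked after their values were seen.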

Additional observations from a re-analysis of the deposited data

Results flagged for a closer look

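In 31 of the 51 named genes called with TH10785 against DMSO, 29 of them listed here, the response differed with and without PNKP1i by the interaction test (edgeR's quasi-likelihood test, adjusted over all tested genes). The interaction is the log2 change of the combination against PNKP1i minus that of TH10785 against DMSO. It draws on the TH10785 and DMSO libraries that also made these genes called, and that choice favours values opposite in sign to the response, so nothing is read from the count of 31, which stands beside 30.6% of all tested genes with a called interaction.

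In cholesterol synthesis the interaction was -1.95 for EBP, -1.75 for FDPS, -1.74 for MVD, -1.73 for ACAT2, -1.69 for DHCR7, -1.64 for LSS, -1.63 for FDFT1, -1.54 for ERG28, -1.5 for MVK, -1.28 for NSDHL and -1.0 for HSD17B7. In sterol sensing and uptake it was -1.18 for INSIG1, -1.0 for SREBF2 and -0.93 for TMEM97. In fatty acid synthesis it was -1.73 for FADS2, -1.27 for ACSS2, -1.27 for PNPLA3, -1.22 for SCD, -1.19 for FASN, -0.77 for FADS1 and -0.57 for ACACA, and for PCYT2 it was -1.04.

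Outside these lists it was -2.08 for ALDOC, -2.08 for PTP4A3, -1.86 for LINC02615, -1.48 for ZNF232-AS1 and -1.37 for CDHR1. SCG5 had a positive value, 2.36, as its rise with TH10785 was larger beside PNKP1i. KRT75 fell with TH10785 and had -1.05, a deeper fall beside PNKP1i.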

How the results depend on the processing

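No named gene called in either fit changed sign under an alternative. Of the named genes called in neither, 21 did, the largest being PLTP, at 0.81 and at -0.39 without TH10785 replicate 3. Against DMSO (97 genes called) the count was 285 with GC and length offsets, 315 with DESeq2, 56 when tested against 1.2-fold, 513 when low-count genes stayed in, and 44 to 178 with 1 library left out. Against PNKP1i (156) it was 263 with GC and length offsets, 243 with DESeq2, 75 when tested against 1.2-fold, 299 when low-count genes stayed in, and 68 to 556 with 1 library left out. For the interaction (5289) it was 3264 with GC and length offsets and 3492 to 6140 with 1 library left out, while the combination against PNKP1i (7945) stayed within 1.5 times in all 21 alternatives. Called members of cholesterol synthesis (18) numbered 16 to 19 throughout. Those of sterol sensing and uptake (6) numbered 3 when tested against 1.2-fold, 3 with the groups compared alone, and 3 to 7 with 1 library left out. Those of fatty acid synthesis (7) numbered 11 with GC and length offsets and 6 to 8 with 1 library left out. The cause of these differences was not tested. Of 2037 values of the 97 called genes under the alternatives, 414, in 56 genes, lost the call; among the 31 lipid genes 47 of 651 did, in 6 genes.

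The replicate numbers were tried as a block. Deviations of same-numbered DMSO and TH10785 libraries correlated at 0.0231, -0.091 and -0.108 over genes, and not every library correlated best with its own number. The deviations within a group of 3 are tied to each other, so these values cannot show whether same-numbered libraries shared a batch. With the replicate block 62 genes were called against DMSO (59 rises and 3 falls), and 3 members of sterol sensing and uptake. Precision is limited by 3 libraries a group and, for low genes, by counting error.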

Other observations

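EGR4, an immediate early transcription factor, was not called but had no read in any DMSO library, against 1.65, 0.104 and 1.55 CPM with TH10785 (edgeR's quasi-likelihood test, adjusted p = 0.0887). It was picked after its values were seen. TH10785 replicate 2 lay below the level of 3 counts, so the difference rests on the other two.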
